A study of Homo sapiens with 9 samples.

Results

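Cadherin junction, tight junction and polarity genes were followed across RNA sequencing libraries of GIST-T1 (T1), an imatinib-sensitive human gastrointestinal stromal tumor (GIST) cell line. The 46 genes were taken by symbol from the table of 61209 gene symbols: cadherins, catenins other than β-catenin, and desmosome, tight junction, nectin and cell polarity genes. All 46 had a row, and 43 had enough counts to be tested. siERRα cells had been transfected with siRNA against ESRRA, the gene of the orphan nuclear receptor ERRα. Imatinib cells had been transfected with the non-target siRNA and given 50 nM imatinib, an inhibitor of the KIT kinase. siNC cells had been transfected with the non-target siRNA and given no drug. Each group had 3 libraries of polyA RNA, 9 in all, and cells were harvested 48 h after transfection. Every library came from this single line, which carries KIT exon 11 del560-79, and no group joined knockdown with the drug. The labels do not state whether libraries of 1 group stem from separate cultures, and every p-value here rests on the spread among libraries alone, which may be technical.

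Cadherins join neighbouring cells through contacts that need calcium, and catenins tie their cytoplasmic tails to actin. Desmosomes anchor the same cells to intermediate filaments, claudins and junctional adhesion molecules form and border the tight junction, and nectins make contacts of their own that the adaptor afadin links to actin. In epithelia the PAR, Crumbs and Scribble complexes divide the cell surface into an apical and a basolateral domain and place the junctions between them. GIST is a mesenchymal tumor of the lineage of the interstitial cells of Cajal, so these genes are read here outside an epithelium.

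Library totals ran from 37527236 to 49363002 counts. ESRRA, the targeted gene, was at 0.757 to 1.40 CPM (counts scaled to a library size of 1e+06 after TMM normalization) in siERRα libraries, 30.4 to 35.6 CPM in imatinib libraries and 40.7 to 44.7 CPM in siNC libraries. All 5 GIST markers (KIT, ANO1, ETV1, PRKCQ and CD34) were tested, with a summed level of 3352 to 3529 CPM in siERRα libraries, 3353 to 3564 CPM in imatinib libraries and 3202 to 3295 CPM in siNC libraries. The sums hide changes of single markers. With imatinib KIT, ANO1, ETV1 and PRKCQ rose by 0.23, 0.61, 0.55 and 0.73 on the log2 scale, and CD34 fell by 0.37. With knockdown ETV1 and PRKCQ rose by 0.29 and 0.32 (edgeR adjusted p under 0.05 for each of these changes). Of 10 epithelial markers only KRT8, KRT18 and ESRP2 had enough counts, and the sum of all 10 was 280 to 303 CPM in siERRα, 193 to 223 CPM in imatinib and 303 to 315 CPM in siNC libraries, nearly all of it KRT18. EPCAM averaged 0.0871, 0.118 and 0.175 CPM in siERRα, imatinib and siNC libraries. The sum of 5 leukocyte markers stayed at or under 0.484 CPM and that of 5 endothelial markers at or under 3.36 CPM, and SOX10, which marks Schwann cells, had 0 counts in all 9 libraries. Mitochondrial genes took 0.943 to 1.03% of counts in siERRα, 1.48 to 1.54% in imatinib and 0.846 to 0.989% in siNC libraries. The sum of 5 smooth muscle markers, 4 of them tested, was 324 to 344 CPM in siERRα, 593 to 638 CPM in imatinib and 495 to 524 CPM in siNC libraries. Nearly all of it was ACTA2 and TAGLN, which fell with knockdown (log2 -0.59 and -0.63) and rose with imatinib (0.24 and 0.45). CNN1 fell with knockdown (-0.97) and stood at -0.14 with imatinib (edgeR adjusted p = 0.586). MYH11 stood at 0.32 with knockdown and -0.53 with imatinib (edgeR adjusted p = 0.642 and 0.408). The part of these differences in the results was not tested. In bulk RNA, fewer cells of a type and less RNA per cell cannot be told apart.

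After ERRα knockdown 8 of the 43 tested genes fell and 5 rose. A call means an adjusted p under 0.05 in edgeR's quasi-likelihood test, with Benjamini-Hochberg adjustment over all 16976 genes tested. The share that fell was 18.6%, against 12.6% of all genes tested, and the share that rose was 11.6%, against 11.4%. The 8 genes that fell were CDH11, CTNND1, CADM1, AFDN, PARD3, PARD6G, PRKCI and MPP3, and the 5 that rose were CTNNA1, CTNNA3, JAM3, NECTIN1 and PALS1. The median log2 fold change of the 43 genes was -0.13, against 0.01 for all genes tested. The count of 5 that rose dropped to 2 without siNC replicate 1, and to 3 without siNC replicate 2, siNC replicate 3 or siERRα replicate 3.

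Under imatinib 18 of the 43 rose and 4 fell. The share that rose was 41.9%, against 21.4% of all genes tested, and the share that fell was 9.30%, against 20.3%. The median log2 fold change was 0.11, against 0.00 for all genes tested. CLDN1, CLDN12, JUP and PALS1 were the genes that fell, and CDH1 and CGNL1 rose by the greatest log2 fold changes among the 43.

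The siERRα and imatinib libraries were also compared directly, since both comparisons above use the same siNC libraries. This direct comparison is at once the test of whether a gene's change with knockdown differs from its change with the drug. Of the 43 genes, 24 were lower in siERRα cells than in imatinib cells (55.8%, against 26.6% of all genes tested) and 6 were higher (14.0%, against 25.6%). The median log2 difference was -0.33, against -0.00 for all genes tested. CADM1, PARD6G and PRKCI fell with knockdown and rose with imatinib, and PALS1 rose with knockdown and fell with imatinib. CTNNA1, JAM3 and NECTIN1 rose in both. A group of 15 genes was called in neither comparison with siNC, a count that was not taken over all genes. They were CDH2, CDH3, PKP4, DSP, DSG2, TJP1, OCLN, F11R, NECTIN2, NECTIN3, PARD6B, PATJ, SCRIB, DLG1 and MAGI2.

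**Figure D1:**
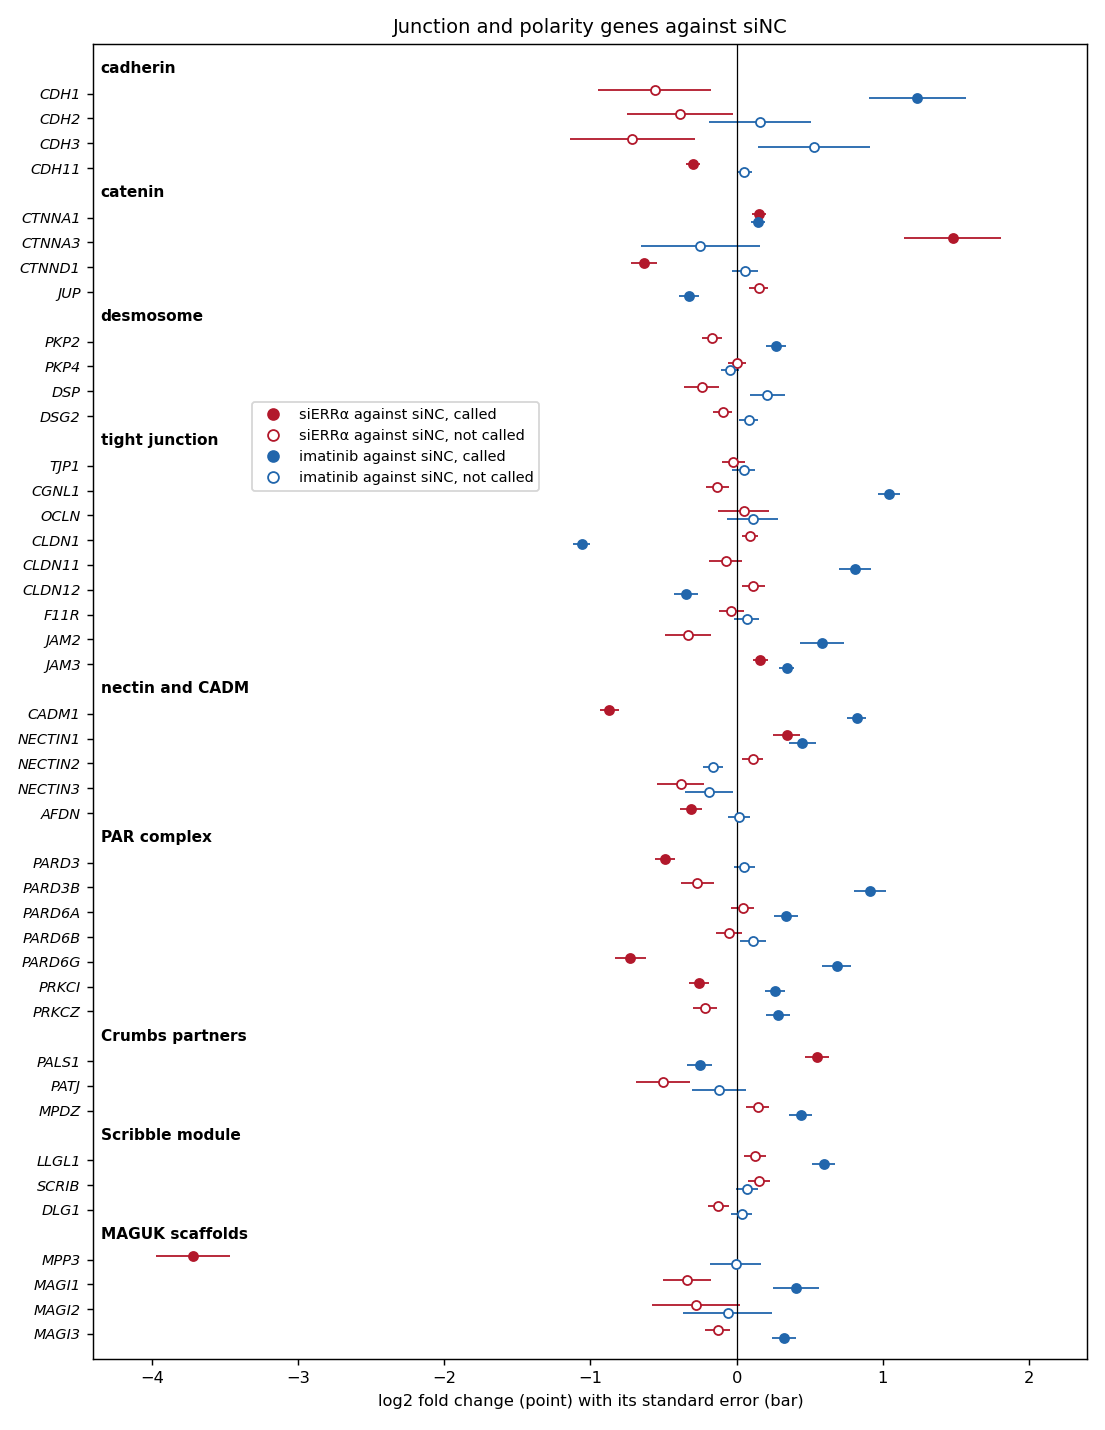
Log2 fold change against siNC (horizontal axis, point) with its standard error (bar) for the 43 tested junction and polarity genes, grouped by role; siERRα is red and imatinib blue, and filled points are called at an adjusted p under 0.05. MPP3 stands at -3.72 in siERRα cells, and CADM1, PARD6G and PRKCI are called lower in siERRα and higher in imatinib cells.

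Among the 6 cadherins of the set, CDH11 alone averaged above 1 CPM, and it fell with knockdown. CDH11 encodes cadherin 11 (OB-cadherin), a cadherin of mesenchymal cells. It was at 534, 544 and 507 CPM in siERRα libraries, 675, 678 and 673 CPM in imatinib libraries and 651, 643 and 658 CPM in siNC libraries. All 3 siERRα libraries were below all siNC libraries, with a log2 fold change of -0.30 (SE 0.0494, edgeR adjusted p = 0.000171). The imatinib libraries all lay above the siNC libraries, but the difference of 0.05 (SE 0.0493) was not called (edgeR adjusted p = 0.417). Between siERRα and imatinib cells the log2 difference was -0.35 (SE 0.0494, edgeR adjusted p = 6.88e-06).

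CDH1 encodes E-cadherin, the cadherin of epithelial adherens junctions, and was close to the limit of detection. It had 13, 14 and 5 counts in siERRα libraries, 25, 38 and 29 in imatinib libraries and 19, 14 and 14 in siNC libraries, or 0.273, 0.295 and 0.129 CPM, 0.678, 1.02 and 0.792 CPM, and 0.425, 0.356 and 0.278 CPM. The imatinib libraries were the 3 highest, and siERRα and siNC libraries overlapped. With imatinib it rose 2.36-fold (log2 1.24, SE 0.330, edgeR adjusted p = 0.00526). The siERRα difference from siNC, -0.56 (SE 0.386), was not called (edgeR adjusted p = 0.330) and was -0.32 without siERRα replicate 3, while siERRα cells were lower than imatinib cells by a log2 difference of -1.80 (SE 0.350, edgeR adjusted p = 0.000255).

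CDH2, which encodes N-cadherin, the cadherin of neural and many mesenchymal cells, was as scarce. It was at 0.231, 0.316 and 0.309 CPM in siERRα libraries, 0.461, 0.323 and 0.465 CPM in imatinib libraries and 0.492, 0.305 and 0.318 CPM in siNC libraries, from 11 to 22 counts each. Its siNC libraries spanned those of the drug group, and neither siERRα (log2 -0.39, SE 0.361) nor imatinib (0.16, SE 0.351) was called against siNC by edgeR (adjusted p = 0.492 and 0.751). Without siNC replicate 1 its siERRα value was -0.13. CDH3, encoding P-cadherin, averaged 0.200 ± 0.0649 CPM in siERRα, 0.479 ± 0.0698 CPM in imatinib and 0.326 ± 0.153 CPM in siNC libraries (SD, n = 3 each). It was called only between siERRα and imatinib cells (log2 -1.24, SE 0.416, edgeR adjusted p = 0.0172), a call lost without siERRα replicate 2 (0.0653) or imatinib replicate 1 (0.0576) and in the DESeq2 Wald test (0.0520). CDH6 (K-cadherin) had 1 count in the whole series, CDH13 (T-cadherin, which is held to the membrane by a lipid anchor) had 1 count in each of 2 libraries, and neither was tested.

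The catenins split. CTNND1, encoding p120-catenin, which binds cadherin tails near the membrane and keeps cadherins at the surface, was at 11.4, 12.5 and 11.7 CPM in siERRα libraries, 18.8, 21.4 and 17.4 CPM in imatinib libraries and 18.4, 16.9 and 19.8 CPM in siNC libraries. All siERRα libraries were below the other 6, and imatinib and siNC libraries overlapped. CTNND1 fell by 0.63 on the log2 scale with knockdown (SE 0.0900, edgeR adjusted p = 3.64e-05), and the imatinib value was 0.06 (SE 0.0882, edgeR adjusted p = 0.622). Other gene models overlap CTNND1 on the same strand, and how reads shared by overlapping genes were counted is not stated. CTNNB1, the β-catenin gene outside the set, was at 379 to 403 CPM in siERRα, 1040 to 1112 CPM in imatinib and 868 to 885 CPM in siNC libraries.

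CTNNA1, the α-catenin that couples β-catenin to actin, averaged 531 ± 15.4 CPM in siERRα, 529 ± 2.52 CPM in imatinib and 477 ± 6.15 CPM in siNC libraries (SD, n = 3 each). Both groups lay above siNC by small margins, 0.16 with knockdown (SE 0.0487, edgeR adjusted p = 0.0254) and 0.15 with imatinib (SE 0.0487, edgeR adjusted p = 0.0198). The knockdown call was lost without siERRα replicate 2 (0.0687) or 3 (0.0624) and without siNC replicate 1 (0.0798), 2 (0.0887) or 3 (0.0887). The imatinib call was lost without siNC replicate 1 (0.0644) or 2 (0.0613). On the opposite strand LRRTM2 shares 445 of the 8830 exon bases of CTNNA1, and the counting strand is not stated.

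CTNNA3, an α-catenin of heart and testis, was scarce but higher in siERRα cells. It had 35, 42 and 32 counts in siERRα libraries, 9, 11 and 7 in imatinib libraries and 20, 8 and 11 in siNC libraries, or 0.734, 0.884 and 0.824 CPM, 0.244, 0.296 and 0.191 CPM, and 0.447, 0.204 and 0.218 CPM. Every siERRα library was above the other 6. CTNNA3 rose 2.78-fold with knockdown (log2 1.48, SE 0.332, edgeR adjusted p = 0.00282) and the imatinib value was -0.25 (SE 0.410, edgeR adjusted p = 0.664). JUP, encoding plakoglobin, a catenin of both adherens junctions and desmosomes, averaged 138 ± 9.72 CPM in siERRα, 99.4 ± 6.93 CPM in imatinib and 124 ± 8.22 CPM in siNC libraries (SD, n = 3 each). It fell with imatinib by 0.32 on the log2 scale (SE 0.0687, edgeR adjusted p = 0.00086), and siERRα cells were above imatinib cells by 0.47 (SE 0.0687, edgeR adjusted p = 1.06e-05).

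No desmosome gene was called after knockdown, where 12.6% of all genes tested fell and 11.4% rose. With imatinib 1 of 4 rose, against 21.4% of all genes tested. PKP2, encoding plakophilin 2, an armadillo protein of the desmosomal plaque, averaged 24.6 ± 1.54 CPM in siERRα, 33.4 ± 0.557 CPM in imatinib and 27.7 ± 1.38 CPM in siNC libraries (SD, n = 3 each), and rose with imatinib by 0.27 (SE 0.0698, edgeR adjusted p = 0.00422). DSP, the desmoplakin gene, whose product binds intermediate filaments, averaged 6.10 ± 0.975, 8.36 ± 1.06 and 7.23 ± 0.317 CPM in siERRα, imatinib and siNC libraries, and DSG2, encoding the desmosomal cadherin desmoglein 2, averaged 52.6 ± 3.79, 59.6 ± 2.87 and 56.2 ± 0.322 CPM. Neither was called against siNC. PKP2, DSP and DSG2 were lower in siERRα cells than in imatinib cells, by log2 differences of -0.44, -0.45 and -0.18 (edgeR adjusted p = 3.32e-05, 0.00427 and 0.0284). For DSG2 that call was lost without siERRα replicate 1 (0.177) and without imatinib replicate 1 (0.0624) or 2 (0.0674). PKP4, a plakophilin-related armadillo protein, averaged 105 ± 7.49, 102 ± 4.03 and 105 ± 2.22 CPM, with log2 fold changes of 0.00 and -0.04. DSC2, encoding desmocollin 2, the usual partner of desmoglein 2, had 0 counts in all 9 libraries.

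CLDN1 and CGNL1 moved with imatinib, in opposite directions and with little difference between siERRα and siNC cells. CLDN1, encoding claudin 1, a sealing claudin of tight junctions, was at 184, 196 and 185 CPM in siERRα libraries, 80.2, 83.3 and 91.1 CPM in imatinib libraries and 179, 174 and 178 CPM in siNC libraries. The imatinib libraries were far below the other 6, and each siERRα library was slightly above each siNC library. CLDN1 fell with imatinib to 0.480 of its siNC level (log2 -1.06, SE 0.0584, edgeR adjusted p = 9.83e-11), and the siERRα value of 0.09 (SE 0.0571) was not called (edgeR adjusted p = 0.279). CGNL1, encoding paracingulin, a cingulin-like protein of the junctional plaque, was at 42.0, 43.8 and 39.2 CPM in siERRα libraries, 106, 91.3 and 84.3 CPM in imatinib libraries and 43.9, 45.7 and 47.3 CPM in siNC libraries. Its imatinib libraries were all far above the other 6, and siERRα libraries lay just under siNC libraries. CGNL1 rose 2.06-fold with imatinib (log2 1.04, SE 0.0771, edgeR adjusted p = 3.98e-09) and was -0.13 (SE 0.0777) with knockdown (edgeR adjusted p = 0.249).

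Of the other claudins, CLDN11, which forms the tight junctions of myelin and Sertoli cells, averaged 4.88 ± 0.206 CPM in siERRα, 9.02 ± 0.817 CPM in imatinib and 5.15 ± 0.475 CPM in siNC libraries (SD, n = 3 each) and rose with imatinib by 0.81 (SE 0.109, edgeR adjusted p = 7.08e-06). CLDN12 averaged 54.3 ± 5.46, 39.5 ± 3.71 and 50.2 ± 2.55 CPM and fell with imatinib by 0.35 (SE 0.0809, edgeR adjusted p = 0.00188). CLDN12 shares 347 of its 6708 exon bases with GTPBP10 on the same strand, and GTPBP10 had an imatinib log2 fold change of -0.36 (edgeR adjusted p = 0.000791). It shares another 201 bases with CDK14, also on the same strand, which had an imatinib log2 fold change of 0.29 (edgeR adjusted p = 0.000792). The 3 claudin genes did not move one way under the drug, and none of them was called after knockdown (12.6% of all genes tested fell and 11.4% rose).

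JAM2 and JAM3 encode junctional adhesion molecules B and C, immunoglobulin family proteins that bind each other across cells. JAM2 averaged 2.16 ± 0.293 CPM in siERRα, 4.11 ± 0.406 CPM in imatinib and 2.73 ± 0.380 CPM in siNC libraries (SD, n = 3 each), and rose with imatinib by 0.59 (SE 0.150, edgeR adjusted p = 0.0039). ATP5PF on the opposite strand shares 58 of the 5947 exon bases of JAM2 and averaged 329, 359 and 390 CPM in siERRα, imatinib and siNC libraries. Its log2 fold changes were -0.24 with knockdown and -0.12 with imatinib (edgeR adjusted p = 0.0139 and 0.175). JAM3 was one of the most abundant genes of the set, at 288 ± 13.9, 327 ± 6.87 and 258 ± 2.28 CPM. It rose with imatinib by 0.34 (SE 0.0520, edgeR adjusted p = 2.94e-05) and with knockdown by 0.16 (SE 0.0520, edgeR adjusted p = 0.028). The knockdown call was lost without siERRα replicate 2 (0.0919) or 3 (0.0783) and without siNC replicate 1, 2 or 3 (0.0606 to 0.107 over these 3). NCAPD3 on the opposite strand shares 1889 of the 5305 exon bases of JAM3 and had log2 fold changes of 0.16 with knockdown and 0.21 with imatinib (edgeR adjusted p = 0.0224 and 0.00235). Without strand, reads of the shared bases cannot be told apart in either pair.

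TJP1 (ZO-1, the scaffold that links tight junction proteins to actin), OCLN (occludin) and F11R (junctional adhesion molecule A) were called in none of the 3 comparisons. TJP1 averaged 45.2 ± 4.90, 47.4 ± 4.79 and 45.9 ± 0.440 CPM in siERRα, imatinib and siNC libraries (SD, n = 3 each). OCLN averaged 1.85, 1.94 and 1.80 CPM and F11R 27.8, 30.0 and 28.6 CPM. Their log2 fold changes lay between -0.04 and 0.05 with knockdown and between 0.05 and 0.11 with imatinib.

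CADM1 had the widest of the opposite changes. It encodes an immunoglobulin family adhesion molecule (also called nectin-like 2 or SynCAM 1) that binds its like on the next cell. CADM1 was at 28.5, 30.8 and 27.7 CPM in siERRα libraries, 92.6, 99.0 and 89.9 CPM in imatinib libraries and 50.7, 52.1 and 56.2 CPM in siNC libraries. The 3 groups did not overlap, with siERRα lowest and imatinib highest. CADM1 fell by 0.87 on the log2 scale with knockdown (SE 0.0674, edgeR adjusted p = 2.23e-08) and rose by 0.82 with imatinib (SE 0.0655, edgeR adjusted p = 1.07e-08). siERRα cells had 0.309 of the imatinib level (log2 -1.69, SE 0.0678, edgeR adjusted p = 5.49e-13).

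NECTIN1 rose in both groups. It averaged 23.1 ± 0.903 CPM in siERRα, 24.9 ± 3.45 CPM in imatinib and 18.2 ± 1.28 CPM in siNC libraries (SD, n = 3 each), 0.34 above siNC with knockdown (SE 0.0905, edgeR adjusted p = 0.00901) and 0.45 with imatinib (SE 0.0910, edgeR adjusted p = 0.000567). The knockdown call was lost without siNC replicate 1 (0.0531). NECTIN2 averaged 93.0 ± 5.80, 77.1 ± 6.18 and 86.2 ± 5.02 CPM and was called only between siERRα and imatinib cells (log2 0.27, SE 0.0696, edgeR adjusted p = 0.00295). NECTIN3, at 1.99, 2.27 and 2.58 CPM, was called in no comparison. AFDN, encoding afadin, the adaptor of nectins, averaged 64.9 ± 3.41, 81.5 ± 8.94 and 80.6 ± 3.29 CPM. It fell with knockdown by 0.31 (SE 0.0724, edgeR adjusted p = 0.00354), with all siERRα libraries below all siNC libraries, and stood at 0.02 with imatinib (edgeR adjusted p = 0.88).

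The PAR complex, in which the scaffolds PAR3 and PAR6 hold an atypical protein kinase C at the apical border, had 3 of 7 genes lower after knockdown (12.6% of all genes tested were) and none higher. Under imatinib 5 of the 7 rose (21.4% of all genes) and none fell, and 6 of the 7 were lower in siERRα cells than in imatinib cells (26.6% of all genes). PARD6G, encoding PAR6γ, was at 4.91, 4.06 and 3.83 CPM in siERRα libraries, 11.5, 11.7 and 11.0 CPM in imatinib libraries and 6.98, 6.72 and 7.52 CPM in siNC libraries. The groups did not overlap, and siERRα was again lowest and imatinib highest. PARD6G fell by 0.73 with knockdown (SE 0.108, edgeR adjusted p = 6.17e-05), rose by 0.68 with imatinib (SE 0.102, edgeR adjusted p = 2.34e-05) and differed by -1.41 between siERRα and imatinib cells (SE 0.107, edgeR adjusted p = 2.3e-09). The other PAR6 genes moved less. PARD6A averaged 15.8 ± 0.318, 19.5 ± 1.40 and 15.4 ± 1.12 CPM in siERRα, imatinib and siNC libraries and rose only with imatinib (0.34, SE 0.0808, edgeR adjusted p = 0.00227), and PARD6B, at 10.1, 11.3 and 10.5 CPM, was called in no comparison.

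PRKCI and PRKCZ encode the atypical kinases, PKCι and PKCζ. PRKCI was at 155, 176 and 148 CPM in siERRα libraries, 215, 245 and 226 CPM in imatinib libraries and 201, 182 and 190 CPM in siNC libraries. The groups did not overlap, although siERRα replicate 2 came close to the lowest siNC library. PRKCI fell by 0.26 with knockdown (SE 0.0672, edgeR adjusted p = 0.00847) and rose by 0.26 with imatinib (SE 0.0671, edgeR adjusted p = 0.00407), and without siNC replicate 1 the knockdown call was lost (0.0518). PRKCZ averaged 12.4 ± 0.252 CPM in siERRα, 17.6 ± 0.204 CPM in imatinib and 14.5 ± 1.32 CPM in siNC libraries (SD, n = 3 each) and rose with imatinib by 0.28 (SE 0.0804, edgeR adjusted p = 0.00827), a call lost without siNC replicate 1 (0.0548) or 3 (0.0508). PRKCZ shares 590 of 7695 exon bases with FAAP20 on the opposite strand.

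The PAR3 genes had the same signs and were called in different comparisons with siNC. PARD3 was at 24.3, 26.5 and 25.1 CPM in siERRα libraries, 38.9, 37.1 and 34.6 CPM in imatinib libraries and 34.4, 34.3 and 37.8 CPM in siNC libraries. The siERRα libraries were the 3 lowest, and PARD3 fell by 0.49 with knockdown (SE 0.0710, edgeR adjusted p = 4.57e-05), with 0.05 under imatinib (SE 0.0704, edgeR adjusted p = 0.574). PARD3B, its paralog, averaged 10.9 ± 0.483, 24.8 ± 4.53 and 13.1 ± 1.36 CPM in siERRα, imatinib and siNC libraries and rose with imatinib by 0.91 (SE 0.109, edgeR adjusted p = 1.89e-06). Its knockdown value of -0.27 (SE 0.113) was not called (edgeR adjusted p = 0.0934). Both were lower in siERRα than in imatinib cells, PARD3 by a log2 difference of -0.54 and PARD3B by -1.18 (edgeR adjusted p = 3.25e-06 and 4.19e-08), and no test was made between the genes.

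PALS1 ran against CADM1 and PARD6G. It encodes the membrane-associated guanylate kinase that joins the Crumbs protein to PATJ, and it was at 51.9, 58.7 and 47.9 CPM in siERRα libraries, 28.2, 32.6 and 30.3 CPM in imatinib libraries and 38.1, 32.4 and 37.7 CPM in siNC libraries. All siERRα libraries were above the other 6, and imatinib replicate 2 lay above siNC replicate 2, so those groups overlapped. PALS1 rose by 0.55 with knockdown (SE 0.0835, edgeR adjusted p = 7.62e-05) and fell by 0.25 with imatinib (SE 0.0855, edgeR adjusted p = 0.0239). The imatinib call was lost without imatinib replicate 1 (0.0994) or 3 (0.0556) and without siNC replicate 1 (0.0960) or 3 (0.0941). siERRα and imatinib cells differed by 0.80 (SE 0.0849, edgeR adjusted p = 2.15e-07). PATJ, the multi-PDZ partner of PALS1, averaged 1.48, 1.93 and 2.11 CPM in siERRα, imatinib and siNC libraries and its knockdown value of -0.50 (SE 0.187) was not called (edgeR adjusted p = 0.0584). MPDZ (MUPP1), a paralog of PATJ, averaged 32.0 ± 1.5, 39.2 ± 3.31 and 28.9 ± 2.38 CPM and rose with imatinib by 0.44 (SE 0.0783, edgeR adjusted p = 0.00017).

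In the Scribble module, which marks the basolateral side, no gene was called after knockdown (12.6% of all genes tested fell and 11.4% rose). LLGL1 (lethal giant larvae homolog 1, a substrate of atypical protein kinase C) averaged 74.7 ± 8.43 CPM in siERRα, 103 ± 3.76 CPM in imatinib and 68.6 ± 5.53 CPM in siNC libraries (SD, n = 3 each) and rose with imatinib by 0.59 (SE 0.0767, edgeR adjusted p = 4.61e-06). SCRIB, the scaffold of the module, averaged 100.05, 94.2 and 89.9 CPM and DLG1, its guanylate kinase member, 54.4, 60.8 and 59.3 CPM, and neither was called in any of the 3 comparisons.

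MPP3, a membrane-associated guanylate kinase of the p55 family, had the greatest change of the set. It had 8, 10 and 5 counts in siERRα libraries, 81, 84 and 87 in imatinib libraries and 92, 109 and 104 in siNC libraries. These are 0.168, 0.210 and 0.129 CPM in siERRα libraries, 2.20, 2.26 and 2.38 CPM in imatinib libraries and 2.06, 2.77 and 2.06 CPM in siNC libraries. The siERRα libraries lay far below the other 6, and imatinib and siNC libraries overlapped. With knockdown MPP3 fell to 0.0761 of its siNC level (log2 -3.72, SE 0.254, edgeR adjusted p = 4.75e-09), and the imatinib value was -0.01 (SE 0.174, edgeR adjusted p = 0.984).

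The MAGI genes encode inverted guanylate kinase scaffolds of cell junctions. MAGI3 averaged 16.1 ± 1.44 CPM in siERRα, 22.0 ± 1.80 CPM in imatinib and 17.6 ± 0.923 CPM in siNC libraries (SD, n = 3 each) and rose with imatinib by 0.32 (SE 0.0850, edgeR adjusted p = 0.00464). MAGI1 averaged 3.59 ± 0.368, 6.05 ± 1.23 and 4.53 ± 0.972 CPM. Its imatinib libraries overlapped the siNC libraries, and the call at 0.41 (SE 0.158, edgeR adjusted p = 0.0469) was lost under 11 alternatives, more than any other call of the set, with adjusted p between 0.0503 and 0.288. Those 11 included fits without siERRα replicate 1 (0.0536) or 3 (0.0525), imatinib replicate 1 (0.288) or 2 (0.0699) and siNC replicate 1 (0.124) or 2 (0.194). MAGI2 averaged 0.837, 0.966 and 1.02 CPM and was called in no comparison.

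**Figure D2:**
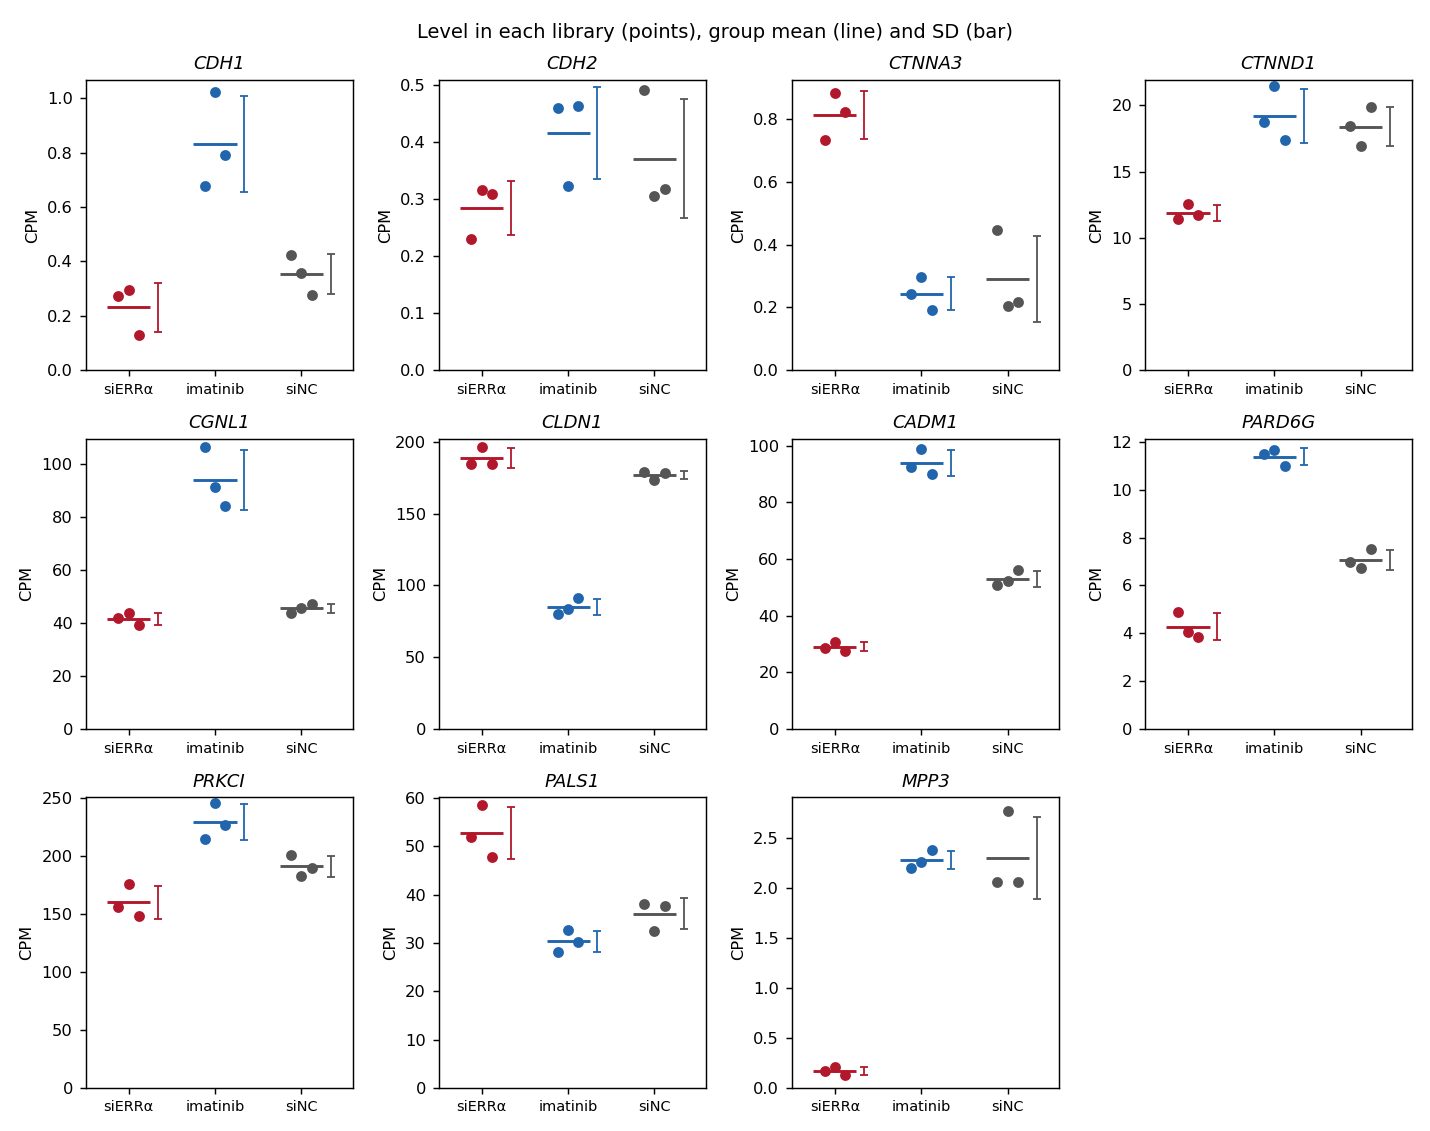
CPM (vertical axis, from 0) in each library for the 11 genes whose library values met the rule for full listing, with siERRα, imatinib and siNC from left to right; points are libraries, lines group means and bars the SD. CADM1, PARD6G and PRKCI have siERRα lowest and imatinib highest without overlap, CLDN1 and CGNL1 move with imatinib, and MPP3 is at 0.129 to 0.210 CPM in siERRα libraries.

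Levels between genes were compared per kilobase of exons. In siNC cells the highest were CTNNA1 at 54.0, CDH11 at 49.0, CLDN1 at 48.8 and JAM3 at 48.6 CPM per kb, followed by PRKCI at 33.0, JUP at 25.2 and NECTIN2 at 23.0 CPM per kb. CDH1, CDH3 and CDH2 stood at 0.0581, 0.0510 and 0.0433 CPM per kb, so of the 6 cadherins CDH11 alone had a level near that of CTNNA1. Under imatinib CLDN1 was at 23.4 CPM per kb, below PRKCI at 39.6 CPM per kb. Of the 46 genes, 7 averaged at least 100 CPM in siNC libraries, 22 lay between 10 and 100 CPM, 10 between 1 and 10 CPM and 7 under 1 CPM.

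**Figure D3:**
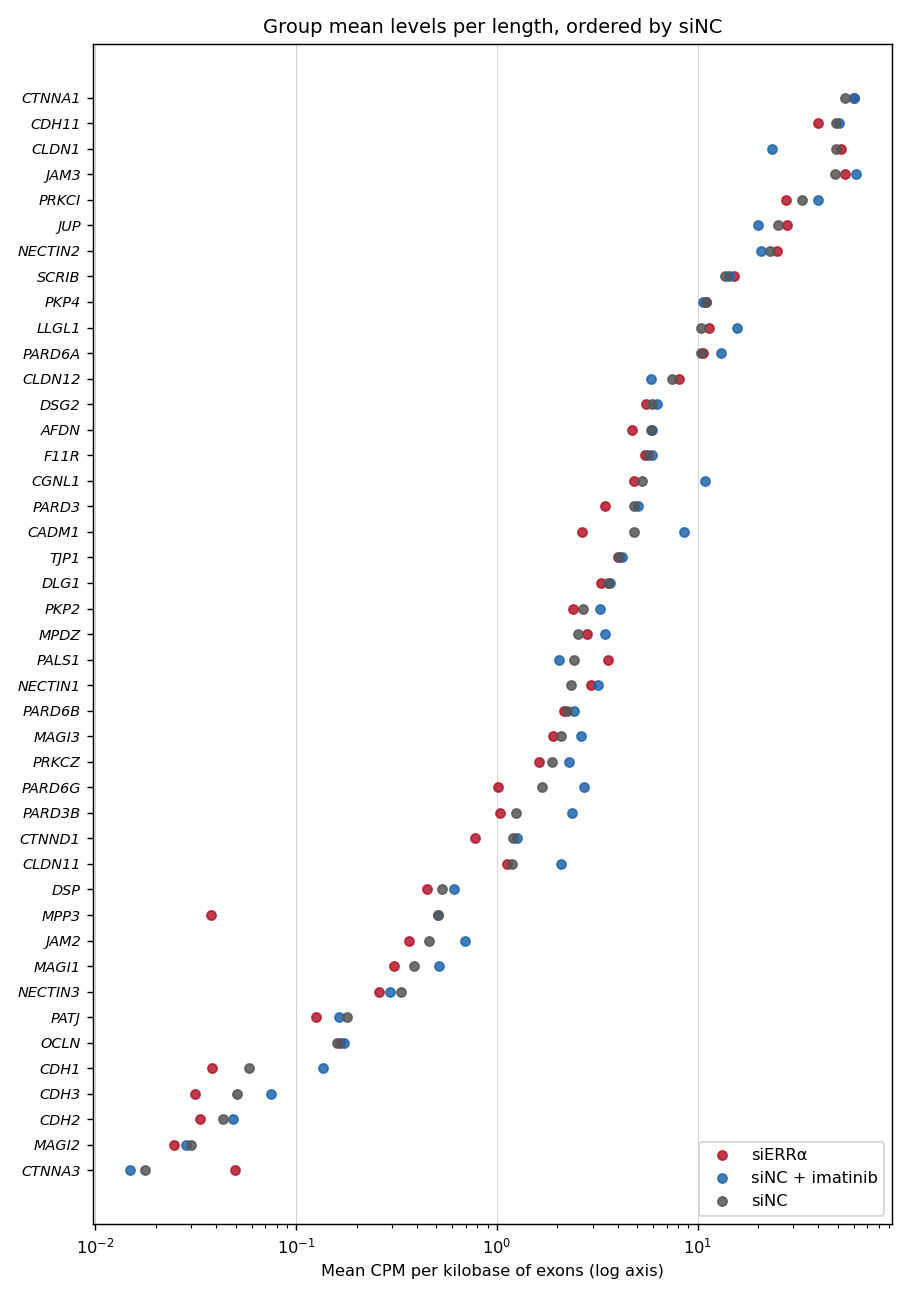
Group mean CPM per kilobase of exons (horizontal log axis) for the 43 tested genes, ordered by the siNC level, with siERRα, imatinib and siNC as separate colours. CTNNA1, CDH11, CLDN1 and JAM3 lead at 48.6 to 54.0 CPM per kb in siNC cells, and MPP3 shows the widest gap, 0.0376 in siERRα against 0.512 CPM per kb in siNC cells.

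The 3' UTRs of the set were searched for the heptamer ATGTTCT on the sense strand, a sequence picked out earlier in these same knockdown data, so its presence supports nothing about its own effect. Of the 43 tested genes 11 held it in the canonical transcript's 3' UTR (25.6%), against 19.0% of all tested genes with a 3' UTR of at least 50 bases. The sites of the 4 holders that fell with knockdown are printed here with the heptamer in capitals and 11 bases of GRCh38 on either side, each in the last exon and read along the transcript. Those of CTNND1 (chr11:57819437-57819443, plus strand, exon 21), CADM1 (chr11:115176307-115176313 and chr11:115175780-115175786, minus strand, exon 12), AFDN (chr6:167971251-167971257 and chr6:167971303-167971309, plus strand, exon 34) and PARD6G (chr18:80157561-80157567, minus strand, exon 3) are followed by those of TJP1 (chr15:29700916-29700922, minus strand, exon 28) and PARD6B (chr20:50751311-50751317, plus strand, exon 3, the first of its 2 copies), holders that were not called.
CTNND1: atttccctgttATGTTCTtatcctttggc
CADM1, first site: aaaaaaaaaaaATGTTCTttggaaagtac
CADM1, next site: tgattcagaaaATGTTCTgtttgctgtgg
AFDN, first site: tttcaaagagaATGTTCTcttacacatac
AFDN, next site: tttcaaagagaATGTTCTcttacatatgt
PARD6G: tcacaaaggaaATGTTCTtttactaagtt
TJP1: gccttaccctcATGTTCTtaattcttagc
PARD6B, first site: tgtaacaaatgATGTTCTcaagtacattt

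Of the 11 holders, CTNND1, CADM1, AFDN and PARD6G fell with knockdown and none rose (36.4% lower), against 30.3% lower and 9.05% higher among all tested genes that hold it and 11.97% lower and 15.1% higher among those without it. Their median log2 fold change with knockdown was -0.31, against -0.13 for the 32 genes without the heptamer, of which CDH11, PARD3, PRKCI and MPP3 fell and 5 rose. MPP3, the gene with the greatest fall, does not hold it. PKP4, DSG2, TJP1, F11R, PARD6B, PATJ and MAGI1 hold it and were not called after knockdown. The reverse complement AGAACAT was also in 11 of the 43 genes, 4 of them lower and 2 higher, with a median of -0.30, while across all tested genes 16.5% of its holders were lower, against 15.2% of genes without it. Among genes with a 3' UTR of 1222 to 3166 bases, 6 of 21 members and 19.8% of all 4227 genes held ATGTTCT.

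**Figure D4:**
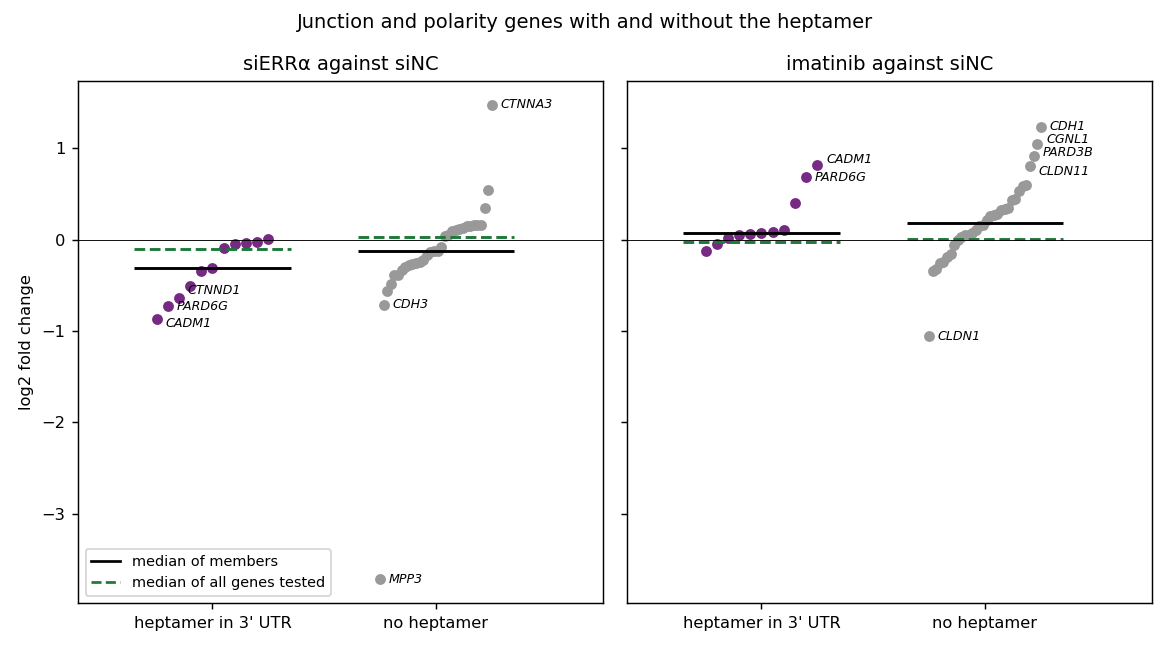
Log2 fold change against siNC (vertical axis) of the 43 tested genes with and without ATGTTCT in the 3' UTR, siERRα on the left and imatinib on the right; points are genes, solid lines their medians and dashed lines the medians of all tested genes. With knockdown the median is -0.31 with the heptamer and -0.13 without it, and CADM1 and PARD6G are at the low end of the holders with knockdown and at the high end with imatinib.

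Promoters from RefSeq (GRCh38.p14, 250 bases before to 50 after a start, both strands) were found for 30 of the 46 genes, 50 promoters in all. They were searched for TCAAGGTCA, the extended recognition sequence of ERR receptors, and for AAGGTCA, the shorter sequence inside it. No promoter of the set held TCAAGGTCA, against 0.353% of all 35116 promoters. AAGGTCA was in 1 promoter of the set (2.00%), against 3.92% of all promoters. It is a TJP1 promoter, with the match at position -130 from the start on the strand opposite to the gene (chr15:29820798-29820804), shown with the motif in capitals.
TJP1 promoter: ctcaatgtAAGGTCAaaaggtgc

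A wider list of 140 other cadherin superfamily, junction and polarity genes had 89 tested members. After knockdown 14 of them fell (15.7%, against 12.6% of all genes tested) and 10 rose (11.2%, against 11.4%), with a median log2 fold change of -0.02. With imatinib 16 fell (17.98%, against 20.3%) and 31 rose (34.8%, against 21.4%), with a median of 0.14. Between siERRα and imatinib cells 40 were lower (44.9%, against 26.6%) and 17 higher (19.1%, against 25.6%). The 22 tested genes of the other cadherin superfamily had 5 lower (22.7%) and 2 higher (9.09%) with knockdown and 3 lower (13.6%) and 12 higher (54.5%) with imatinib. There FAT3, an atypical cadherin, rose with imatinib by 1.10, the protocadherin genes PCDH1 and PCDH17 fell by 0.90 and 0.82, and PCDH19 rose by 0.99 (edgeR adjusted p = 5.07e-10, 4.96e-08, 3.08e-06 and 8.74e-06). PCDH17 also fell with knockdown by 0.75 (edgeR adjusted p = 1.73e-05).

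Among the genes of the adherens junction plaque, PLEKHA7, which joins p120-catenin to microtubules, averaged 8.65 ± 0.233 CPM in siERRα, 23.0 ± 0.490 CPM in imatinib and 8.79 ± 0.396 CPM in siNC libraries (SD, n = 3 each) and rose with imatinib by 1.39 (edgeR adjusted p = 1.13e-10). KIFC3, a motor protein of the same link, fell with knockdown by 0.50 (edgeR adjusted p = 3.9e-05), AJUBA fell by 0.24 (edgeR adjusted p = 0.00648), and EPB41L5 rose with imatinib by 0.47 (edgeR adjusted p = 0.000343). In the other desmosome list only 3 of 10 genes were tested, and 2 of them rose with imatinib (66.7%, against 21.4% of all genes tested). These were EVPL and PERP, by 1.18 and 0.22 (edgeR adjusted p = 0.00524 and 0.0286). EVPL was scarce, at means of 0.302, 1.18 and 0.520 CPM in siERRα, imatinib and siNC libraries. Of 18 other tight junction genes 2 fell with knockdown (11.1%, against 12.6% of all genes tested), and with imatinib 2 fell (11.1%, against 20.3%) and 5 rose (27.8%, against 21.4%), among them AMOT, an angiomotin, by 0.86, AMOTL1 by 0.65 and the scarce TJP3 (ZO-3) by 2.55 (edgeR adjusted p = 1.32e-09, 0.00152 and 0.000303). AMOT also fell with knockdown by 0.27 (edgeR adjusted p = 0.00181), and ARHGEF2 fell with imatinib by 0.49 (edgeR adjusted p = 5.97e-07).

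CADM4, a relative of CADM1, rose with imatinib by 0.81 (edgeR adjusted p = 3.69e-07) and stood at -0.04 with knockdown, while PVR, a nectin-like adhesion receptor, fell in both groups, by 0.70 with knockdown and 0.45 with imatinib (edgeR adjusted p = 9.95e-06 and 0.000393). The 31 other polarity genes had 3 lower (9.68%, against 12.6% of all genes tested) and 7 higher (22.6%, against 11.4%) with knockdown and 7 lower (22.6%, against 20.3%) and 8 higher (25.8%, against 21.4%) with imatinib. MPP2, a paralog of MPP3, averaged 15.4 ± 1.57 CPM in siERRα, 26.3 ± 0.752 CPM in imatinib and 17.3 ± 1.46 CPM in siNC libraries (SD, n = 3 each), and it rose with imatinib by 0.60 (edgeR adjusted p = 1.25e-05), with -0.17 after knockdown (edgeR adjusted p = 0.182). LRRC1, a Scribble relative, rose with knockdown by 0.49 (edgeR adjusted p = 7.01e-05). ECT2 fell with imatinib by 0.44, and MARK3, the kinase PAR1A, fell with imatinib by 0.33 and rose with knockdown by 0.18 (edgeR adjusted p = 6.25e-05, 8.23e-05 and 0.0186).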

How the data were processed

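RNA sequencing had been done on 9 libraries of T1 cells, paired-end, and the authors used STAR 2.7.3a for alignment to GRCh38 and featureCounts 2.0.1 for gene counts. The deposited counts are whole numbers without normalization. The sources used here name no annotation release, strand setting or handling of reads with several matches. Libraries were grouped by the treatment label. Genes were filtered with filterByExpr (minimum count 10, minimum total 15), scaled by TMM and tested in edgeR 4.0.16 (R 4.3.3) by its quasi-likelihood F-test with robust dispersions, all 9 libraries in 1 fit, with Benjamini-Hochberg adjustment over 16976 genes. SE is the log2 fold change over the square root of its F, and CPM is TMM-scaled. Alternatives used DESeq2 1.42.0 and limma 3.58.1, other filters, the column numbers as a block, and each library left out. In counts simulated for siERRα against siNC (16558 genes), the changed genes were drawn only from those above 1 CPM in siNC libraries. There 99% of 100 genes with a true log2 change of 1 were called by edgeR, 81% of 100 with 0.5, and 13 genes with none. No other genes were changed, and counts were drawn at the dispersion trend, without a spread particular to each gene. In the data 4064 genes were called after knockdown, so the simulated shares need not hold for the real comparison. These shares do not cover scarcer genes such as CDH1, CDH2, CDH3 and CTNNA3. The 46 genes and the lists were chosen with earlier results of these data known. Library values are given for genes called after knockdown at 0.5 or more on the log2 scale, called with imatinib at 1 or more, or called in opposite directions, and for CDH1 and CDH2; values for CDH11 and PARD3 were added after they were seen, as was CELSR2 among the other genes. Of each wider list at most 4 called genes with the smallest adjusted p are named. Exons, 3' UTRs and overlaps came from GENCODE release 44 (GRCh38), promoters from RefSeq, searched in Python 3.11.15. Counts in same-group libraries differed beyond sampling noise, so none was taken as a duplicate.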

Additional observations from a re-analysis of the deposited data

How the results depend on the processing

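Over all alternatives, 7 to 10 of the 43 genes were lower after knockdown (8 in the fit reported), 3 to 5 lower and 15 to 18 higher with imatinib (4 and 18), and 22 to 25 lower and 5 to 6 higher in siERRα than in imatinib cells (24 and 6). The 5 genes higher after knockdown were 3 with no filter on low counts and 2 to 5 with a library left out, and over all genes 1931 higher became 1163 to 2018. With the replicate block (column numbers 1 to 3) knockdown gave 8 lower and 4 higher, imatinib 4 lower and 17 higher, and the block ended the calls of CTNNA1 after knockdown (0.0529) and MAGI1 with imatinib (0.0557) and no other. Correlations of same-numbered libraries ran from -0.0996 to 0.147, too few libraries to decide whether equal numbers mark a shared culture. The sample titles do not carry these numbers. No direction of a called gene reversed. Calls gained were JUP (0.0217), LLGL1 (0.0275), PKP2 (0.0326) and DLG1 (0.0254) after knockdown without siERRα replicate 2, PATJ without siERRα replicate 3 (0.0489), PARD3B under 4 alternatives (0.0330 to 0.0370) and PRKCZ with at least 10 counts in every library (0.0384). NECTIN2 fell with imatinib under 4 alternatives (0.0350 to 0.0480). Between siERRα and imatinib cells, F11R (0.0186) and DLG1 (0.00451) were lower without siERRα replicate 2, DLG1 also with the stricter filter (0.0401) and without imatinib replicate 3 (0.0375). Searching every annotated 3' UTR gave 13 holders of ATGTTCT in place of 11. With no filter on low counts CTNNA1 was called neither after knockdown (0.0697) nor with imatinib (0.0815), JAM3 not after knockdown (0.0623) and DSG2 not between siERRα and imatinib cells (0.0617). Depth limits CDH2, at 11 to 22 counts in every library, and CDH1 and CTNNA3 in the libraries where they had 5 to 20.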

Other observations

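Outside the 46 genes, the cadherin superfamily member CELSR2, a seven-pass cadherin of planar cell polarity, had the same order of groups as CADM1. It averaged 5.61 ± 0.469 CPM in siERRα, 15.7 ± 2.57 CPM in imatinib and 9.62 ± 0.750 CPM in siNC libraries (SD, n = 3 each). CELSR2 fell by 0.77 with knockdown (edgeR adjusted p = 6.86e-05) and rose by 0.70 with imatinib (edgeR adjusted p = 3.97e-05). It was picked out after its values were seen.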
